A study of Mus musculus with 40 samples.

Results

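The peroxisomal β-oxidation enzymes described here were the 8 genes Acox2, Ehhadh, Hsd17b4, Acaa1a, Acaa1b, Scp2, Decr2 and Amacr, chosen by symbol from the 21448 gene symbols of the probe table. Each is given on the probe that took most of its reads, and the other probes of Acox2, Acaa1a and Scp2 served as a check. The livers came from wildtype Crl:CD1(ICR) mice of both sexes that received GenX in deionized water by oral gavage for 90 days at a daily dose of 0.1, 0.5 or 5 mg per kg body weight, or only the vehicle (0 mg/kg, control), with 5 mice in each of the 8 groups. GenX is the trade name of a short-chain perfluoroalkyl ether acid salt made to replace long-chain perfluoroalkyl substances. RNA from formalin-fixed sections was measured with TempO-Seq, in which neighboring probe pairs on an RNA are ligated, amplified and sequenced. Levels are given as CPM, the count of a probe per 1000000 reads of its library after scaling, for 39 libraries. The library of mouse 355, a female at 0.5 mg/kg, was left out for its low depth, so that group held 4 mice. All 8 genes passed the filter on low counts, and the rule that chose them used their names only. In whole sections, fewer cells of a type and less RNA per cell cannot be told apart.

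Peroxisomes shorten very long-chain, branched and dicarboxylic fatty acids that mitochondria handle poorly. An acyl-CoA oxidase makes the first double bond, a bifunctional enzyme hydrates and dehydrogenates the product, and a thiolase releases acetyl-CoA or propionyl-CoA. In rodent liver the straight-chain branch of this pathway is the textbook target of peroxisome proliferator-activated receptor α (PPARα), while a partly separate set of enzymes serves branched-chain fatty acids and the side chain of bile acids. Ehhadh encodes the L-bifunctional enzyme and Hsd17b4 the D-bifunctional enzyme. Acaa1a and Acaa1b encode the straight-chain thiolases, and Scp2 encodes a thiolase for branched substrates together with sterol carrier protein. Decr2 encodes the 2,4-dienoyl-CoA reductase needed for unsaturated chains, Acox2 the oxidase for branched chains and bile acid precursors, and Amacr the racemase that prepares branched substrates.

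PPARα binds DNA as a heterodimer at a direct repeat of AGGTCA with a spacer of 1 base. Start-site windows of 300 bases were therefore read from RefSeq (GRCm38.p6, from 250 bases before to 50 bases after the start) for 6 of the 8 members. Hsd17b4 and Amacr had no window in that table. The windows of the 3 genes with the largest responses and of Acox2, a weak responder, are printed 5′ to 3′ on the strand of the gene. Capitals mark the stretch closest to the repeat on either strand. The Ehhadh window is at chr16:21787785-21788084 on the minus strand, the Acaa1a window at chr9:119341044-119341343 on the plus strand, the Acaa1b window at chr9:119157044-119157343 on the minus strand and the Acox2 window, of 2 listed, at chr14:8258790-8259089 on the minus strand.
Ehhadh: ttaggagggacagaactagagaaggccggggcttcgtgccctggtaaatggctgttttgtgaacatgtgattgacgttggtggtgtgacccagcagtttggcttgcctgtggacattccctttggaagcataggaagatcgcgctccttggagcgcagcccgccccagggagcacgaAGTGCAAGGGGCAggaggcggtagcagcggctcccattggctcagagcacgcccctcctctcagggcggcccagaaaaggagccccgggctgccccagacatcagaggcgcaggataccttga
Acaa1a: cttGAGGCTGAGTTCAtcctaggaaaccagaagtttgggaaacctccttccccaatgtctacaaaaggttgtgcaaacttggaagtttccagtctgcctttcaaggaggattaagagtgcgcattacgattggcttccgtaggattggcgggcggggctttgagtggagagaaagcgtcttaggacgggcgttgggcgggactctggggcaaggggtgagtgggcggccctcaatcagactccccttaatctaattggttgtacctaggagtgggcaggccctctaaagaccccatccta
Acaa1b: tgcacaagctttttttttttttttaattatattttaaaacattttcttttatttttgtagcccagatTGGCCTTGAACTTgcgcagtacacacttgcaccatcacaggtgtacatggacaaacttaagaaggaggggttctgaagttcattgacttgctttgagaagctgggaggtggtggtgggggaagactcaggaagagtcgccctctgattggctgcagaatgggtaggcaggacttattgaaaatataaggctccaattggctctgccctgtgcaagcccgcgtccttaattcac
Acox2: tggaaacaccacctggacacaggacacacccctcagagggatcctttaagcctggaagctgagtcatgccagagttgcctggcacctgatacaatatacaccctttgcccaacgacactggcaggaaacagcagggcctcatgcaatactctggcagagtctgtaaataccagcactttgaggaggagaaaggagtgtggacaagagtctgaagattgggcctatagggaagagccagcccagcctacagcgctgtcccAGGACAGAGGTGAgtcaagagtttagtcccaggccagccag
Against AGGTCANAGGTCA, in which N is any base, the best stretch had 4 mismatches in Ehhadh and Acaa1b, 5 in Acaa1a and 2 in Acox2. Of all 32851 windows, 99.9% held a stretch with at most 5 mismatches and 79.8% one with at most 4. At most 2 mismatches were found in 3.86% and an exact copy in 0.0396%. The Acox2 stretch lay 9 to 21 bases after the start, and the other Acox2 window had 3 mismatches. The single unit AGGTCA on either strand was present in 16.3% of all windows and in none of the 4 printed ones. The Scp2 window, which is not printed, held 1. These windows thus held no close copy beside the starts of the strongest responders, which says nothing about elements farther away.

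Ehhadh rose with dose in both sexes and reached the largest change of the 8 genes. In control males it stood at 139, 167, 213, 247 and 257 CPM, and at 0.1 mg/kg at 283, 284, 286, 354 and 422 CPM. The males given 0.5 mg/kg had 1518, 1814, 2037, 2078 and 2184 CPM. Those given 5 mg/kg had 8124, 9211, 11037, 11731 and 12884 CPM. The treated males lay above every control male at all 3 doses, and the ranges at successive doses did not overlap. The share of all genes whose groups separated in this way was not counted, here or below. In control females the levels were 172, 258, 274, 280.2 and 282 CPM, and at 0.1 mg/kg they were 223, 239, 244, 294 and 315 CPM, within and around the control range. The 4 females at 0.5 mg/kg had 615, 779, 889 and 1062 CPM, and the 5 females at 5 mg/kg had 5792, 7389.5, 7670.3, 8978 and 9511 CPM. Both upper doses in females lay wholly above the controls.

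**Figure D1:**
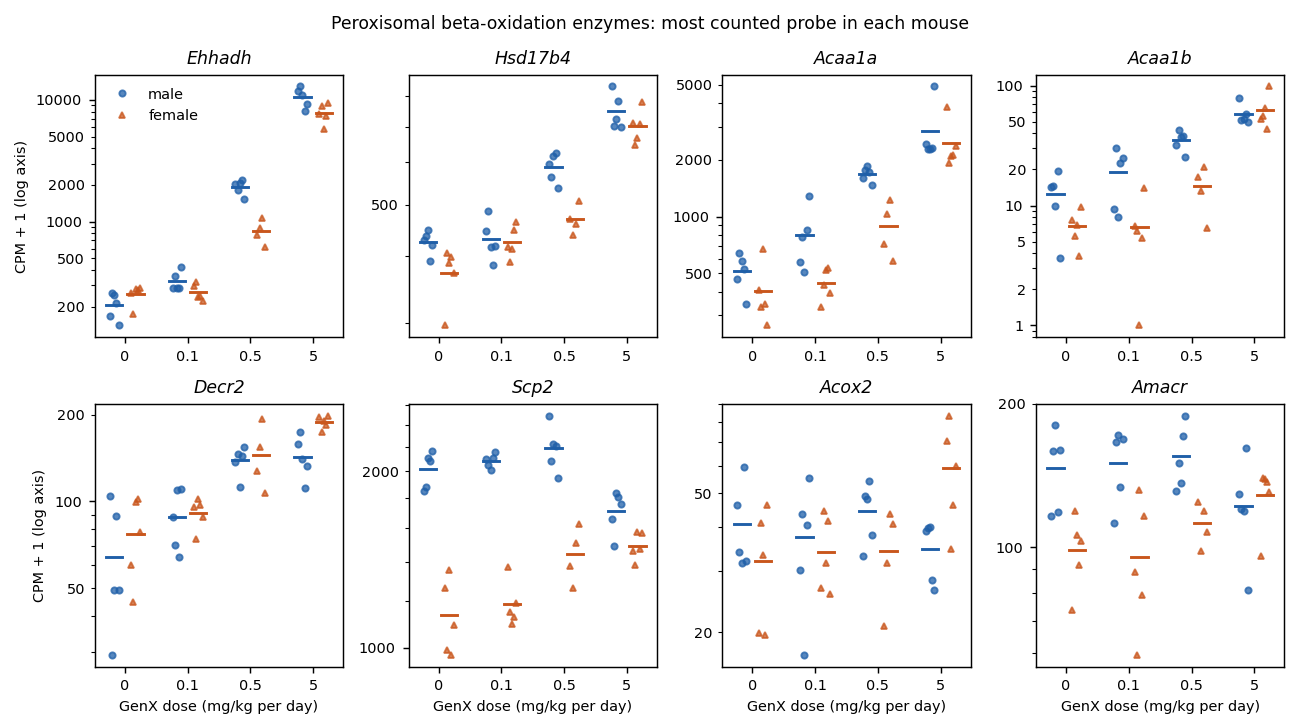
Level of each gene in each mouse, as CPM plus 1 on a log axis, against the daily GenX dose. Circles are males, triangles are females, and bars are group means over 5 mice (4 females at 0.5 mg/kg). Ehhadh climbs from 139 to 282 CPM in controls of either sex to between 5792 and 12884 CPM at 5 mg/kg, whereas the control and 5 mg/kg mice of the same sex overlap for Acox2 and Amacr.

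Fold changes were tested with edgeR's quasi-likelihood F-test in 1 fit of all groups, with Benjamini-Hochberg adjustment over the 17877 probes tested, and a change was called at an adjusted p below 0.1. Ehhadh in males changed by a log2 fold change of 5.69 ± 0.20 (SE) at 5 mg/kg, a 51.8-fold rise (adjusted p = 5.66e-28), and by 3.23 ± 0.17 at 0.5 mg/kg, a 9.41-fold rise (adjusted p = 2.55e-19). In females it changed by 4.96 ± 0.19 at 5 mg/kg, a 31.1-fold rise (adjusted p = 6.21e-26), and by 1.72 ± 0.17 at 0.5 mg/kg, a 3.3-fold rise (adjusted p = 1.14e-09). At 0.1 mg/kg the value in males was 0.67 ± 0.16, or 1.59-fold, with an adjusted p of 0.212, and in females 0.05 ± 0.16, with an adjusted p of 1. The male value at 0.1 mg/kg was not called although none of its 5 mice overlapped the controls. It was called by DESeq2 (0.65, adjusted p = 0.0143), without the filter on low counts (0.67, adjusted p = 0.000152) and without control male 102 (adjusted p = 0.0989), so this call depends on the setting.

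Across the 8 genes, the count of calls followed the dose. At 5 mg/kg in males 5 of 8 rose (Ehhadh, Hsd17b4, Acaa1a, Acaa1b and Decr2) and none fell, beside 9.35% of all 12412 genes called in either direction. In females given 5 mg/kg 7 of 8 rose, all but Amacr, beside 4.09% of all genes. At 0.5 mg/kg 4 of 8 rose in males (Ehhadh, Hsd17b4, Acaa1a and Decr2), beside 2.61%, and 2 of 8 in females (Ehhadh and Acaa1a), beside 0.201%. At 0.1 mg/kg none of the 8 was called in males, beside 0.0403% of all genes, or in females, beside 0%. At that dose 3 of the 8 had an unadjusted p under 0.05 in males (Ehhadh, Acaa1a and Decr2) and 0 in females. Of all 12412 genes, 1598 in males and 1191 in females had such a p. DESeq2 called 1 of the 8 in males, Ehhadh, and 0 in females, beside 1.35% and 0.778% of the genes it tested. The median log2 fold change of the 8 genes was 0.26, 0.80 and 0.99 in males at the 3 rising doses and 0.08, 0.64 and 1.11 in females, while that of all genes tested lay between -0.01 and 0.11. Adding the library of mouse 355 lowered the counts at 0.5 mg/kg to 2 for males and 0 for females, and at 5 mg/kg to 4 for either sex. The share of all genes called then fell as well, to 0.541% and 0.0666% at 0.5 mg/kg and to 5.43% and 1.498% at 5 mg/kg, in males and females in turn. The log2 fold changes of the male calls lost at 0.5 mg/kg were 0.47 (Hsd17b4) and 1.12 (Decr2) with that library, as without it.

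**Figure D2:**
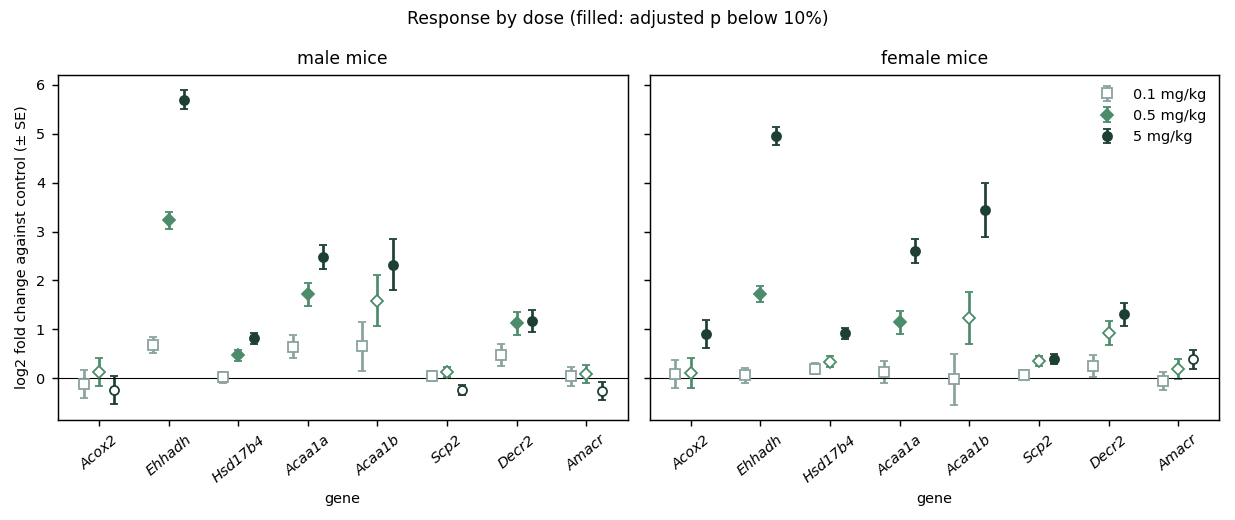
Log2 fold change against the controls of the same sex (vertical axis, ± SE) for each gene at each dose, males on the left and females on the right. Filled symbols have an adjusted p below 0.1. Ehhadh stands highest in both sexes, at 5.69 and 4.96 at 5 mg/kg, and the points of Acox2, Scp2 and Amacr lie below 1.

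Hsd17b4, the other bifunctional enzyme, rose far less than Ehhadh but with little spread. Control males had 391, 418, 429, 436 and 447 CPM, males at 0.5 mg/kg 536, 563, 595, 616 and 624 CPM, and males at 5 mg/kg 699, 699.5, 722, 781 and 831 CPM. The dose groups of males did not overlap from 0.5 mg/kg upward. Control females had 296, 371, 387, 398 and 405 CPM, females at 0.5 mg/kg 438, 459, 469.6 and 506 CPM, and females at 5 mg/kg 645, 666, 706, 709 and 778 CPM. The females of both upper doses also lay above their controls. The log2 fold change at 5 mg/kg was 0.81 ± 0.11 in males (adjusted p = 1.51e-07), with 0.92 ± 0.11 for females (adjusted p = 1.67e-08). At 0.5 mg/kg it was 0.47 ± 0.11 in males (adjusted p = 0.00864) and 0.34 ± 0.11 in females, where it was not called (adjusted p = 0.485) except by DESeq2 (adjusted p = 0.0317). At 0.1 mg/kg it was 0.02 ± 0.11 in males and 0.19 ± 0.11 in females, neither called.

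The straight-chain thiolase Acaa1a (chr9:119339676-119350299, plus strand, GENCODE M21 on GRCm38) rose in both sexes at the 2 upper doses. Control males had 344, 467, 528, 579.8 and 638 CPM and males at 0.5 mg/kg 1471, 1606, 1724, 1759.9 and 1861 CPM. At 5 mg/kg 4 males had 2276 to 2427 CPM and mouse 405 had 4894 CPM. In control females the levels were 264, 332, 343, 406 and 673 CPM, at 0.5 mg/kg 581, 711, 1038 and 1226 CPM, and at 5 mg/kg 1918, 2083, 2109, 2358 and 3798 CPM. All mice at 5 mg/kg lay above the controls, while 1 of the 4 females at 0.5 mg/kg overlapped them. The log2 fold change at 5 mg/kg was 2.47 ± 0.24 in males (adjusted p = 5.16e-11), with 2.60 ± 0.24 for females (adjusted p = 2.04e-11). At 0.5 mg/kg it was 1.72 ± 0.24 (adjusted p = 2.02e-06) and 1.14 ± 0.24 (adjusted p = 0.0144), and the female call was lost without mouse 353 (0.94, adjusted p = 0.235) and in a fit of only the groups compared (1.14, adjusted p = 0.151). At 0.1 mg/kg the males ranged from 507 to 1289.7 CPM, 3 of 5 above every control, with a log2 fold change of 0.65 ± 0.23 that was called only without the filter on low counts among the alternatives (adjusted p = 0.350 with it and 0.0431 without). Probes 79478 and 80776 of the gene took 1.78% and 1.10% of its reads. At 5 mg/kg they gave 0.54 and 0.15 in males, not called, and 1.5 (called) and 1.42 (not called) in females, each lower than the most counted probe.

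Acaa1b (chr9:119148023-119157093, minus strand) is a close copy of Acaa1a on the same chromosome. The longest coding transcripts of both were identical at 1531 of 1813 aligned positions (84.4%), and the start-site windows at 149 of 322 (46.3%). The file gives no probe positions, so binding of a probe to the RNA of the other copy was not tested, and each value is uncertain to that extent. Control males had 2.62, 8.97, 13.3, 13.6 and 18.5 CPM, males at 0.5 mg/kg 24.6, 31.2, 36.5, 37.3 and 42.1 CPM, and males at 5 mg/kg 48.4, 50.7, 51.6, 57.4 and 78.0 CPM. These 3 groups of males did not overlap. Control females had 2.78, 4.55, 5.93, 6.63 and 8.71 CPM, females at 0.5 mg/kg 5.53, 12.1, 16.3 and 19.999 CPM, and females at 5 mg/kg 42.5, 51.8, 54.4, 64.5 and 97.4 CPM. Only the highest dose in females stood wholly apart from the controls. Counts in these libraries gather around multiples of 1 captured molecule, worth 20.8 to 49.8 reads by library, so the controls rest on 0.8 to 6.5 molecules per male and 1.3 to 3.0 per female, against 26.7 to 40.6 and 15.3 to 33.7 at 5 mg/kg. Female 253 at 0.1 mg/kg had 0 reads, which allows up to 0.206 CPM by reads alone. A captured molecule was worth 33.9 reads in that library, so the limit by molecules is higher. The 0 therefore does not show absence. The log2 fold change at 5 mg/kg was 2.33 ± 0.52 in males (adjusted p = 0.00177), with 3.44 ± 0.55 for females (adjusted p = 1.89e-05). At 0.5 mg/kg it was 1.59 ± 0.51 in males (adjusted p = 0.121), with 1.23 ± 0.54 for females (adjusted p = 0.485), and neither was called. The male value was called without the filter on low counts (adjusted p = 0.0195) and in a fit of only the groups compared (adjusted p = 0.0497).

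Decr2 (chr17:26081208-26090337, minus strand) changed in males nearly as much at 0.5 mg/kg as at 5 mg/kg, whereas in females the value at 0.5 mg/kg was the smaller. Control males had 28.4, 48.1, 48.4, 88.3 and 104 CPM, males at 0.5 mg/kg 111 to 154 CPM, and males at 5 mg/kg 110.0 to 173 CPM. In females the controls had 43.8, 59.3, 77.1, 98.4 and 101 CPM, the mice at 0.5 mg/kg 106, 126, 154 and 192 CPM, and those at 5 mg/kg 173, 183, 190.0, 196 and 198 CPM. Both upper doses lay above all controls in each sex, and they overlapped each other in both sexes. The log2 fold change in males was 1.12 ± 0.23 at 0.5 mg/kg (adjusted p = 0.0025) and 1.17 ± 0.23 at 5 mg/kg (adjusted p = 0.000298). In females it was 0.93 ± 0.24 at 0.5 mg/kg, not called (adjusted p = 0.125), and 1.31 ± 0.23 at 5 mg/kg (adjusted p = 0.000118). The female value at 0.5 mg/kg was called by DESeq2 (adjusted p = 0.0162) and without the filter on low counts (adjusted p = 0.0250).

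Scp2 (chr4:108043839-108144998, minus strand) differed between the sexes in controls. At 5 mg/kg the sexes overlapped on its most counted probe but not on all of its probes. On its most counted probe, 63300, control males had 1853, 1883, 2080.1, 2107 and 2170.2 CPM and control females 972, 992, 1092, 1266 and 1354 CPM. The sexes did not overlap. The female minus male log2 difference in controls was -0.83 ± 0.10 (adjusted p = 1.35e-07), the only 1 of the 8 genes called there, beside 3.89% of all genes. At 5 mg/kg males had 1491, 1659, 1758, 1805 and 1835 CPM and females 1383, 1461, 1473, 1567 and 1574 CPM, so that the sexes overlapped, all males lay below and all females lay above their controls. The log2 fold change at 5 mg/kg was 0.39 ± 0.10 in females (adjusted p = 0.0177), lost in a fit of only the groups compared (adjusted p = 0.126). In males it was -0.24 ± 0.10, not called (adjusted p = 0.176), but called by DESeq2 (-0.31, adjusted p = 0.00677) and with DESeq2's size factors in edgeR (-0.31, adjusted p = 0.0487), a scaling under which the median over all genes at this dose was 0.04 and not 0.11.

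The 4 Scp2 probes did not share 1 ratio between the sexes. GENCODE M21 lists coding transcripts of Scp2 that start at 108144998, at 108118532 and 108118504, and at 108071419, and which of them each probe reads is not given. In controls the female minus male log2 difference was -2.65 ± 0.23 on probe 78173, -0.84 ± 0.13 on probe 29592 and -2.05 ± 0.25 on probe 72800 (adjusted p = 7.45e-12, 1.02e-05 and 9.21e-08), and on each probe all females lay below all males. Within a library, the reads of probe 78173 were 38% to 46% of those of probe 63300 in control males and 8.53% to 16.3% in control females. For probe 72800 these shares were 9.71% to 13% and 2.89% to 7.01%, while for probe 29592 they were 23.5% to 31% and 24.4% to 30%. The sexes thus overlapped in the share of probe 29592 and not in those of the other two. In females at 5 mg/kg the share of probe 78173 was 11.2% to 25.9%, with a median of 21.2% against 10.9% in controls, and in males it was 31.3% to 41%. Females at 5 mg/kg changed by 1.23 ± 0.22 on probe 78173, 0.66 ± 0.13 on probe 29592 and 0.78 ± 0.24 on probe 72800, all called (adjusted p = 0.000166, 0.000463 and 0.0699). Males at 5 mg/kg changed by -0.38, -0.08 and 0.05 on these probes, none called. In females given 0.5 mg/kg, probes 78173 (1.11 ± 0.23, adjusted p = 0.0121) and 29592 (0.58 ± 0.13, adjusted p = 0.0414) were called, whereas the most counted probe was not (0.35 ± 0.11, adjusted p = 0.360).

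**Figure D3:**
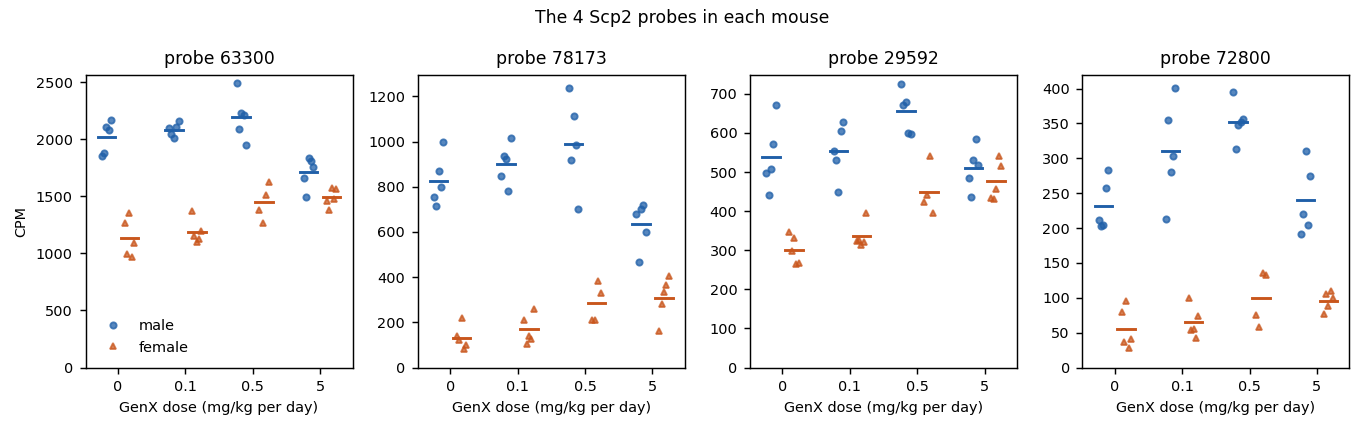
CPM of the 4 Scp2 probes in each mouse against the daily dose, on linear axes from 0, with circles for males, triangles for females and bars for group means. Females lie below males on every probe in the controls, and on probes 63300 and 29592 the sexes meet at 5 mg/kg, while probes 78173 and 72800 remain lower in females.

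Acox2 and Amacr act on branched chains and bile acid precursors, and of their values only that of Acox2 in females at 5 mg/kg was called. Acox2 (chr14:8225511-8259353, minus strand) had 30.5 to 58.6 CPM in control males and 25.5 to 38.9 CPM at 5 mg/kg, with a log2 fold change of -0.24 ± 0.29 (adjusted p = 0.908). In control females it had 18.7, 19, 32.2, 39.99 and 45.4 CPM and at 5 mg/kg 33.6, 45.3, 59.0, 69.7 and 82.3 CPM, with 3 of 5 above every control. That rise, 0.90 ± 0.29, was called by a small margin (adjusted p = 0.0932). Leaving out any 1 of 6 mice (controls 151, 153 and 154 and treated 451, 452 and 455), adding mouse 355, testing only the groups compared or dropping the filter on low counts ended the call, with values of 0.74 to 1.08 over all mice left out in turn. Its second probe, 68388, gave 0.94 ± 0.61 in those females and was not called. Amacr (chr15:10981756-10996626, plus strand) had 115 to 179 CPM in control males, 80.3 to 160.2 CPM in males at 5 mg/kg, 72.7 to 118 CPM in control females and 94.9 to 139 CPM in females at 5 mg/kg. The groups overlapped, with 4 of 5 females at 5 mg/kg above every control. Its log2 fold change at 5 mg/kg was -0.27 ± 0.19 in males (adjusted p = 0.523), with 0.38 ± 0.19 for females (adjusted p = 0.270), neither called. In controls it was lower in females by a log2 difference of -0.58 ± 0.19, outside the threshold (adjusted p = 0.101) and inside it by DESeq2 (adjusted p = 0.0261).

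Among mice given the lowest dose, only Ehhadh in males stood wholly apart from its controls. Given 0.1 mg/kg, males had 385 to 485 CPM of Hsd17b4, 6.96 to 29 CPM of Acaa1b, 63.2 to 109 CPM of Decr2, 2010 to 2160 CPM of Scp2, 16.3 to 54.2 CPM of Acox2 and 111 to 171 CPM of Amacr. Females given the same dose had 389 to 462 CPM of Hsd17b4, 331 to 532 CPM of Acaa1a, 0 to 12.9 CPM of Acaa1b, 73.0 to 101 CPM of Decr2, 1095 to 1370 CPM of Scp2, 24.8 to 43.5 CPM of Acox2 and 58.4 to 131 CPM of Amacr. Each of these groups overlapped its controls, although 3 of 5 males for Acaa1b, 2 of 5 for Decr2 and 4 of 5 females for Hsd17b4 lay above every control. Even at 0.5 mg/kg Scp2, Acox2 and Amacr overlapped the controls. Males had 1949 to 2489.7 CPM of Scp2, 32 to 53.1 CPM of Acox2 and 130.1 to 188 CPM of Amacr. In females these levels were 1266 to 1627 CPM, 19.8 to 42.5 CPM and 97.3 to 123 CPM. The log2 fold changes of these genes at that dose ran from 0.08 to 0.35 over both sexes. On the most counted probes none was called by edgeR. Scp2 in females was called by DESeq2 (adjusted p = 0.0226) and by edgeR with its probes summed (0.48, adjusted p = 0.0634).

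The step from 0.5 to 5 mg/kg was compared within each sex. In males Ehhadh rose by a further 2.46 ± 0.17 (adjusted p = 4.94e-15), Acaa1a by 0.75 ± 0.23 (adjusted p = 0.0830) and Hsd17b4 by 0.35 ± 0.11 (adjusted p = 0.0886), while Scp2 fell by 0.36 ± 0.10 on the log2 scale (adjusted p = 0.0507). These 4 of 8 calls stand beside 3.01% of all genes, and only Ehhadh stayed called in each fit that left out 1 mouse and in every other alternative. Without mouse 405 the Acaa1a value was 0.47 (adjusted p = 0.360). In females Ehhadh rose by a further 3.23 ± 0.19 (adjusted p = 1.11e-17), Acaa1a by 1.46 ± 0.25 (adjusted p = 0.000209), Hsd17b4 by 0.58 ± 0.11 (adjusted p = 0.00168) and Acaa1b by 2.20 ± 0.57 (adjusted p = 0.0380), which is 4 of 8 beside 1.38% of all genes. The Acaa1b call was lost without mouse 352, 354 or 455 (adjusted p up to 0.208). Decr2 changed by 0.04 ± 0.23 in males and 0.38 ± 0.24 in females over this step, neither called. Expressed as a share of the log2 change at 5 mg/kg, the value at 0.5 mg/kg was 56.8% in males and 34.8% in females for Ehhadh, 57.4% and 36.6% for Hsd17b4, 69.5% and 43.8% for Acaa1a, 68.3% and 35.9% for Acaa1b, and 96.2% and 71.0% for Decr2. The male share was the larger for each of these 5 genes, a description that rests on the same controls at both doses.

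Whether the response itself differed between the sexes was tested as the female minus male difference in log2 fold change. At 0.5 mg/kg Ehhadh differed by -1.51 ± 0.24 (adjusted p = 0.000367), the response of females being the smaller, and it was the only 1 of 8 genes called, beside 0.322% of all genes. The call held in each fit that left out 1 mouse and was lost when the library of mouse 355 was added (-1.84, adjusted p = 0.187). At 5 mg/kg Scp2 differed by 0.63 ± 0.14 (adjusted p = 0.0181), the only gene of 8 beside 1.19% of all genes. On its other probes the difference was 1.61 ± 0.31 (78173, adjusted p = 0.00315), 0.74 ± 0.18 (29592, adjusted p = 0.0333) and 0.73 ± 0.34 (72800, adjusted p = 0.364). The Ehhadh difference at 5 mg/kg was -0.74 ± 0.23, not called (adjusted p = 0.126), but called without the filter on low counts (adjusted p = 0.00246) and without male control 102, female control 152 or male 404 (adjusted p down to 0.0649). Acox2 differed by 1.14 ± 0.41 at 5 mg/kg (adjusted p = 0.165) and was called by DESeq2 alone (1.22, adjusted p = 0.0917). At 0.1 mg/kg edgeR called none of the 8, beside 0% of all genes. DESeq2 called none either, beside 0.983% of the genes it tested. By edgeR 1 of the 8 had an unadjusted p under 0.05, Ehhadh (-0.62 ± 0.23, adjusted p = 0.316), beside 990 of all 12412 genes.

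**Figure D4:**
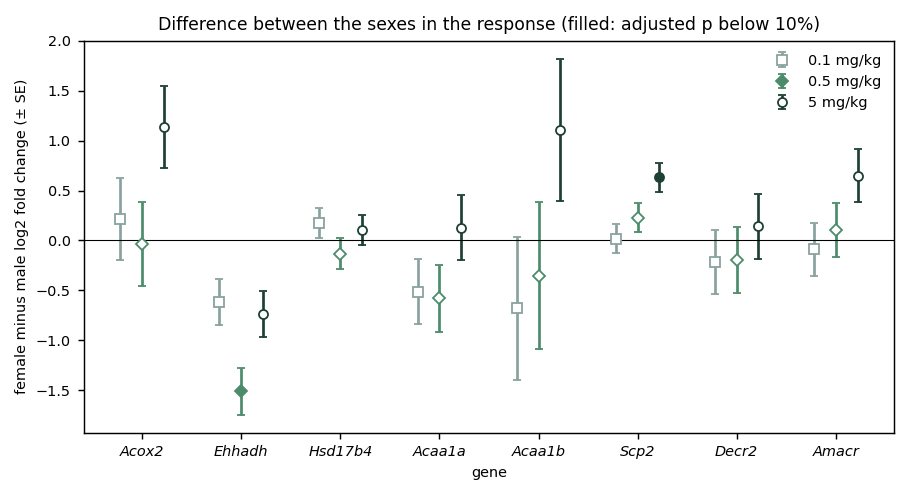
Female minus male difference in log2 fold change (vertical axis, ± SE) for each gene at each dose. Values below 0 mean a smaller response in females. Ehhadh at 0.5 mg/kg (-1.51) and Scp2 at 5 mg/kg (0.63) are the filled points, with an adjusted p below 0.1.

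The rest of the pathway was followed on 3 lists. Of 17 other peroxisomal genes of fatty acid oxidation, 5 rose and 3 fell in males at 5 mg/kg. In females 4 rose and none fell. The medians were 0.93 and 0.40 with genes at 0 reads in a whole group set at the bound of 3 reads per library. For males this median took in 16 of the 17, since a gene at 0 reads in both groups was left out. The fitted values gave 0.91 and 0.40. Given 0.5 mg/kg, 3 of the 17 rose in males by edgeR and none in females. In those females 3 of the 17 had an unadjusted p under 0.05, beside 1220 of all 12412 genes. Crot, which moves medium-chain acyl groups onto carnitine for export, went from 41.2 ± 14.96 to 229 ± 83.6 CPM in males (SD, n = 5; 2.47 ± 0.28, adjusted p = 3.04e-09) and from 81.1 ± 25.7 to 197 ± 55.5 CPM in females (1.28 ± 0.27, adjusted p = 0.00153). Ech1, a dienoyl-CoA isomerase, changed by 2.29 ± 0.46 in males and 1.88 ± 0.45 in females, Hsdl2, a short-chain dehydrogenase of peroxisomes, by 1.99 ± 0.29 and 1.73 ± 0.28, and Eci2, an enoyl-CoA isomerase, by 1.36 ± 0.17 and 1.12 ± 0.17, all called. Crat, which makes acetylcarnitine, changed by 2.85 ± 0.79 in males (adjusted p = 0.0145), and the female value of 2.04 ± 0.76 was not called (adjusted p = 0.201). Pecr, a trans-2-enoyl-CoA reductase of chain elongation, fell by 1.31 on the log2 scale in males (adjusted p = 3.48e-05), with 149.6 ± 17.7 CPM in controls and 60.3 ± 16.6 CPM at 5 mg/kg, and in females its value was -0.29 ± 0.22, not called. Of 14 mitochondrial β-oxidation genes, 10 rose in each sex at 5 mg/kg (medians 0.96 in males and 0.80 in females), and at 0.5 mg/kg 10 rose in males against 2 in females. Of 20 peroxins and peroxisomal transporters, males given 5 mg/kg had 5 that rose and females 4 (medians 0.35 and 0.05). None of the last 2 lists fell. Of all 12412 genes, 9.35% in males and 4.09% in females were called in either direction at 5 mg/kg. At 0.5 mg/kg these shares were 2.61% and 0.201%. The median over all genes at 5 mg/kg was 0.11 in males and -0.01 in females.

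**Figure D5:**
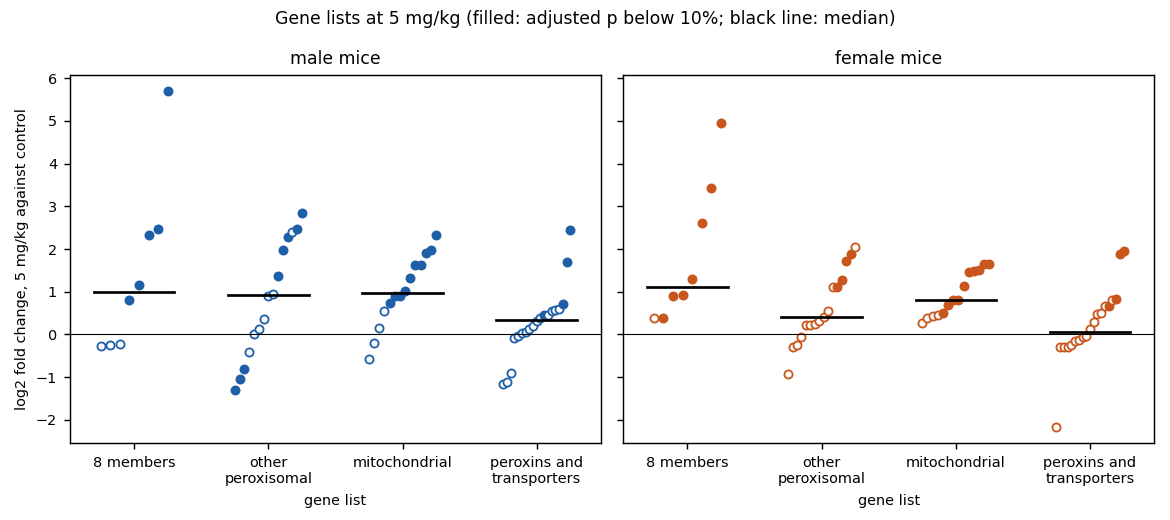
Log2 fold change at 5 mg/kg against control for the genes of 4 lists (vertical axis), males on the left and females on the right. Filled points have an adjusted p below 0.1, and black lines are medians, between 0.05 and 1.11. Genes at 0 reads in a whole group are not drawn, among them 1 called gene of the peroxins and transporters in males. They enter the median at the bound set by 3 reads per library. A gene at 0 reads in both groups was left out, so 16 of the 17 other peroxisomal genes entered the male median. The spread among the 8 members, from -0.27 to 5.69 in males, is wider than among the mitochondrial genes.

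The 5 genes whose level was most like that of Ehhadh over the 39 libraries were Hsd17b11 (Pearson r = 0.98 of log2 CPM), Acot1 (0.98), Cyp4a31 (0.97), Hadhb (0.95) and Acadm (0.95). Acot1 and Cyp4a31 belong to families of near-identical genes, whose probes could capture each other's RNA. Among the members, r with Ehhadh was 0.93 for Hsd17b4, 0.92 for Acaa1a, 0.76 for Acaa1b, 0.75 for Decr2, 0.33 for Acox2, 0.15 for Scp2 and 0.12 for Amacr. These values describe libraries that share doses, sexes and scaling. After the mean of each group was taken off, r with Ehhadh was -0.01 for Hsd17b4, 0.38 for Acaa1a, 0.34 for Acaa1b, 0.17 for Decr2, 0.31 for Acox2, 0.03 for Scp2 and -0.12 for Amacr.

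The 39 libraries held 10341341 to 15562253 reads, or about 287244 to 656743 captured molecules. The males at 5 mg/kg stood apart from the control males, with 483008 to 656743 molecules and 14027 to 14883 probes with reads, against 287244 to 369995 molecules and 12085 to 12668 probes in control males. Males at 0.5 mg/kg had 361912 to 526724 molecules and overlapped both of these groups. Females at 5 mg/kg had 306232 to 339820 molecules, against 307766 to 521441 in their controls. Y-linked genes were read in all male and no female libraries, as labeled. The liver label was checked on 7 hepatocyte markers, all of them present in every group. Their summed level was 30474 to 37167 CPM in control males and 18111 to 24824 CPM at 5 mg/kg, and 22918 to 39426 CPM and 15294 to 24583 CPM in females. Of these 7 markers, Apoa1, Cps1 and Hnf4a were called lower in both sexes and Apob in males at that dose. The rest were not called. In males at 5 mg/kg the 6 stellate cell and fibroblast markers summed to 157 to 194 CPM against 63.7 to 129 CPM in controls (Col1a1 and Col3a1 called), the 4 markers of dividing cells to 23.4 to 70.7 CPM against 0 to 2.71 CPM (Top2a called), and among endothelial markers Clec4g fell. No marker of Kupffer cells and macrophages, cholangiocytes, lymphocytes or neutrophils was called at any dose in either sex by edgeR, of 5, 3, 4 and 1 tested. At 5 mg/kg an unadjusted p under 0.05 was found for 1 Kupffer cell, 1 cholangiocyte and 1 lymphocyte marker in males, and for 1 cholangiocyte and 3 lymphocyte markers in females. The part of these shifts, and of the difference in captured molecules, in the values of the members was not tested.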

How the data were processed

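The authors scraped fixed liver sections into lysis buffer, ran TempO-Seq for the whole transcriptome and deposited raw read counts, 1 number for each of 30146 probes in each of 40 mice. The deposited counts were taken as read counts that had not been normalized. The submitters' processing notes name bcl2fastq 2.17.1.14, Bowtie and the build mm10. Following the study's depth rule, libraries more than 2 SD below the mean total (13041142 ± 1680475 reads) were left out, which removed mouse 355 (6711981 reads). The totals of the others limit precision less than their captured molecules, estimated from the first peak of each library's smoothed count histogram.

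The test was edgeR's (version 4.0.16, in R 4.3.3) after filterByExpr and TMM scaling, with 1 coefficient for each of 8 groups, no covariates and the quasi-likelihood F-test, two-sided, with Benjamini-Hochberg adjustment over 17877 probes. The threshold was an adjusted p below 0.1. SEs are the absolute log2 fold change divided by the square root of F. The 12 comparisons were 6 doses against control, 2 dose steps, 3 differences between the sexes and female against male controls. All 8 members were named, as were up to 6 called genes of the other peroxisomal list, those with the largest change at 5 mg/kg averaged over the sexes. The 5 genes most correlated with Ehhadh were also named. The mitochondrial list and the list of peroxins were given by counts and medians. Levels are not compared between genes, since probes differ in efficiency. Alternatives were DESeq2 1.42.0, the tool of the study, edgeR scaled by size factors of DESeq2, every probe without a count filter, the full 40 libraries, the compared groups fitted alone, the sum of a gene's probes, a threshold of 0.05 and leaving out each mouse. Log2 CPM used a prior count of 2. Fits and the peak finder were tested on simulated data. The members and lists were chosen with earlier results of these data known.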

Additional observations from a re-analysis of the deposited data

Results flagged for a closer look

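In 4 of the 64 groups of mice tested (8 genes in 8 groups), 1 mouse stood apart by Dixon's test, close to the 1 in 20 that chance gives. Acaa1a was 4894 CPM in male 405 at 5 mg/kg against at most 2427 CPM in the other males of the group, and 3798 CPM in female 451 against at most 2358 CPM. Ehhadh was 172 CPM in control female 152, below the 258 CPM of the next control. Amacr was 94.9 CPM in female 451 at 5 mg/kg, below the next value of 129.7 CPM. Responses of 2 genes differed between the sexes by a test of the interaction. They were Ehhadh at 0.5 mg/kg, by a female minus male log2 difference of -1.51, and Scp2 at 5 mg/kg, by 0.63.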

How the results depend on the processing

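No paired analysis was possible because every mouse has its own number and none is shared between groups. Keeping the library of mouse 355 changed the number of the 8 genes called in the most comparisons. At 0.5 mg/kg it became 2 for males and 0 for females, and it became 4 in females at 5 mg/kg, 1 for the step from 0.5 to 5 mg/kg in males, 0 for the sex difference at 0.5 mg/kg, 0 for that at 5 mg/kg and 0 for female against male controls, while the share of all genes called lay between 0% and 5.43% over the 12 comparisons. DESeq2 called 1 in males at 0.1 mg/kg, 5 in females at 0.5 mg/kg, 2 for the sex difference at 5 mg/kg and 2 for the controls, beside 1.35%, 1.48%, 3.298% and 6.65% of all genes it tested. Without the filter on low counts 2 were called in males at 0.1 mg/kg and 2 for the sex difference at 5 mg/kg, beside 0.172% and 1.42% of genes. Among female and male controls, DESeq2's size factors and summed probes each called 2, beside 3.84% and 4.31% of genes. Only the groups compared gave 1 in females at 0.5 mg/kg, beside 0.154%, and a threshold of 0.05 gave 1 for the male step. Leaving out 1 mouse moved the count to 0 to 1 in males at 0.1 mg/kg, 1 to 3 in females at 0.5 mg/kg, 1 to 3 for the male step, 1 to 2 for the sex difference at 5 mg/kg and 1 to 2 for the controls. The causes were not tested.

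Changes of sign were limited to log2 values that were not called. DESeq2 and its size factors gave -0.0029 and -0.0028 for Hsd17b4 in males at 0.1 mg/kg and 0.013 and 0.013 for the Acox2 sex difference at 0.5 mg/kg. Summed probes gave -0.034 for Acox2 in males at 0.5 mg/kg and 0.0801 for its sex difference. With mouse 355, females at 0.5 mg/kg gave -0.16 for Acox2 and -0.15 for Amacr, and the sex difference was -0.077 for Scp2 and -0.23 for Amacr. Leaving out 1 mouse gave, in males at 0.1 mg/kg, -0.31 to 0.062 for Acox2, -0.030 to 0.055 for Hsd17b4 and -0.038 to 0.12 for Amacr. In females at 0.1 mg/kg it gave -0.046 to 0.27 for Acox2, -0.058 to 0.11 for Ehhadh, -0.58 to 0.30 for Acaa1b and -0.20 to 0.076 for Amacr, and at 0.5 mg/kg -0.044 to 0.28 for Acox2. The step from 0.5 to 5 mg/kg ranged from -0.037 to 0.12 for Decr2 in males and from -0.014 to 0.11 for Scp2 in females. The sex difference ranged from -0.039 to 0.090 for Scp2 and -0.24 to 0.041 for Amacr at 0.1 mg/kg, from -0.22 to 0.15 for Acox2 at 0.5 mg/kg, and from -0.083 to 0.42 for Acaa1a and -0.11 to 0.33 for Decr2 at 5 mg/kg. Depth limits Acaa1b most, since controls held few captured molecules.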

Other observations

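Mouse 355 (female, 0.5 mg/kg) entered none of the comparisons, and its library was scaled to its own total. It had 12.5 CPM of Ehhadh, below the lowest control female (172 CPM), 80.8 CPM of Hsd17b4 against at least 296 CPM, 43.1 CPM of Acaa1a against at least 264 CPM and 141 CPM of Scp2 against at least 972 CPM. Acaa1b, Decr2 and Amacr had 0 reads there, which allows up to 0.447 CPM by reads alone. A captured molecule was worth 72.9 reads in that library, so that it stood for about 92099 molecules. The limit by molecules is thus higher than that by reads, and 0 reads does not show absence there.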
